A study of Sus scrofa domesticus with 150 samples.

Results

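The wound edge 6 days after wounding was compared with unwounded skin in 12 of the 150 samples of the series: the 6 edge samples of day 6 and the 6 samples of day 0, chosen by the day and location in their labels. The animals were 6 female domestic pigs of a Yorkshire mix, whose age the sources used here do not give. The wounds received dressings and no other treatment before sampling. Each animal carried circular wounds cut through the full thickness of the skin of the back. A wound left the experiment once it had been sampled, and a topical antibiotic was applied to the biopsy site. Animals 1326 to 1328 had other wounds sampled on days 2 and 4. The 6 edge samples came from wounds B and K of animals 1326, 1327 and 1328. The skin samples were whole excised tissue, 1 sample from each of animals 1323 to 1328, and their labels name no wound. Further comparisons used the 6 samples of the center of the same day 6 wounds, and the 6 edge samples each of day 2 and day 13, from other wounds of the same 3 animals.

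In healing skin, keratinocytes at the border of a wound switch from making a barrier to an activated state in which they migrate and divide, while the hair follicles and glands of the lost skin are gone from the wound bed. Below and beside them, fibroblasts and new vessels build granulation tissue, a provisional connective tissue whose matrix is laid down, crosslinked and cut back by proteases. Neutrophils and then macrophages and lymphocytes enter the tissue and release cytokines that act on all of these cells.

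Polyadenylated RNA was sequenced in bulk, and total counts ran from 14252564 to 18380786 per edge library and from 15698806 to 21415735 per skin library. Levels are given as CPM, the count of a gene scaled to the total of its library, and 3 counts, the smallest number taken as detected, corresponded to 0.140 to 0.210 CPM. The edge samples resembled each other less than the skin samples did, with a median Pearson's r of 0.959 (0.921 to 0.980) between edge samples and 0.973 (0.925 to 0.982) between skin samples on log2(1 + CPM). Edge and skin samples correlated at a median of 0.851 (0.814 to 0.893), below every pair within a group. The skin of animal 1324 stood apart from the other skin samples, with a mean r of 0.944 against 0.965 to 0.973, and held far less hair follicle RNA. The edge of wound K of animal 1328 held more skeletal muscle RNA than the other edge samples. Results that rest on either are given with and without it.

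Of 14675 genes tested with edgeR's quasi-likelihood test, 3985 were higher at the day 6 edge (27.2%) and 3971 lower (27.1%) at a Benjamini-Hochberg adjusted p below 0.05, and 1917 and 2065 of these differed at least 2-fold. These shares are the background for every count below, and the median log2 fold change over all genes tested was -0.014. Both wounds of an animal share their source. With the wounds of an animal summed, 4197 genes were higher and 4133 lower of 15627 tested. With the animal as a block 2527 genes were higher and 2507 lower. Only animals 1326 to 1328 have both tissues, so the block fit takes its contrast from them alone. With only their skin and no block, 3020 were higher and 2815 lower of 15296 tested. Why calls were lost with the block was not tested. In 2495 genes (17.0%) every edge sample lay above every skin sample, and in 1811 (12.3%) every edge sample lay below. The edge of 1328 B was the lowest of the 6 edge samples in 847 of the 1917 genes that were at least 2-fold higher, and the edge of 1326 B the highest in 632 of the 2065 that were at least 2-fold lower. Without the skin of 1324 the counts were 3971 and 3823, without the edge of 1328 K 3764 and 3741, and without the edge of 1328 B 4395 and 4454. Day 0 tissue was taken as whole excisions and the edge as biopsies, so time after wounding and the way of sampling cannot be told apart. In bulk tissue, fewer cells of a type and less RNA per cell cannot be told apart either.

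**Figure D1:**
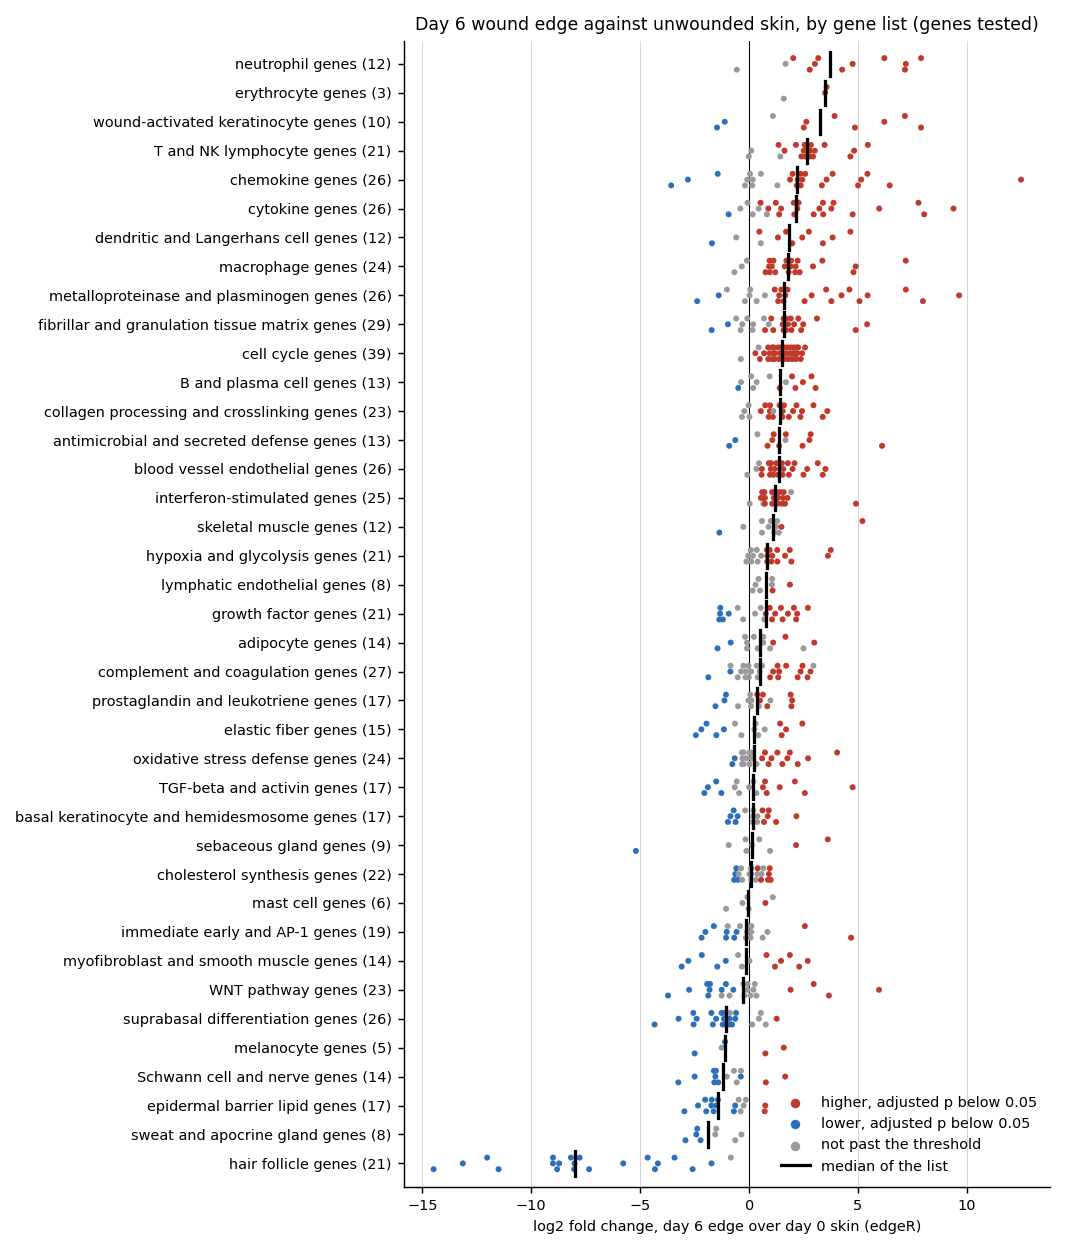
Log2 fold change of the tested genes of each list at the day 6 edge against day 0 skin, 1 point per gene, with the list median as a bar; red points were higher, blue lower and grey not called at an adjusted p below 0.05. The hair follicle list had the lowest median (-8.01), and the neutrophil list the highest (3.72).

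Below, values are the lowest, median and highest of the 6 samples of a group. Fold changes are log2 with a standard error worked back from the F statistic of the test, so it restates that test. Against skin, a second p is given where the call was lost with the animal as a block or with the wounds of an animal summed. Single genes of the other comparisons are given from the main fit only, without this check.

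Genes of activated keratinocytes rose at the edge, while genes of the differentiated layers fell. Of the 22 symbols listed for wound-activated keratinocytes, 13 were in the table and 10 were tested, of which 7 rose and 2 fell (median log2 fold change 3.27). KRT6A, KRT16, KRT17, S100A7 and the SPRR genes were not found under these names. KRT6C, a stress keratin of migrating keratinocytes, measured 5313, 12943 and 21929 CPM at the edge against 478, 899 and 995 CPM in skin (log2 fold change 3.92 ± 0.34, adjusted p = 1.23e-06). Its close copy KRT6B measured 539, 974 and 1998 CPM at the edge against 52.4, 175 and 244 CPM in skin (log2 fold change 2.63 ± 0.38, adjusted p = 6.95e-05), and reads may have been split between the pair. In both keratins the lowest edge sample lay above the highest skin sample. S100A8, S100A9 and S100A12, calcium-binding alarmins that both activated keratinocytes and neutrophils make, were low in skin. S100A9 measured 88, 638 and 964 CPM at the edge against 0.899, 2.29 and 4.11 CPM in skin (log2 fold change 7.89 ± 0.67, adjusted p = 1.03e-06). S100A8 measured 68.7, 275 and 472 CPM at the edge against 0.631, 1.89 and 3.19 CPM in skin (log2 fold change 7.15 ± 0.57, adjusted p = 6.01e-07). S100A12 measured 131, 314 and 619 CPM at the edge against 0.971, 3.96 and 7.45 CPM in skin (log2 fold change 6.21 ± 0.54, adjusted p = 1.20e-06). None of the alarmins overlapped between the groups. SERPINB3, a protease inhibitor of stressed epithelia, measured 19.6, 49.1 and 95.5 CPM at the edge against 0.263, 1.73 and 3.31 CPM in skin (log2 fold change 4.86 ± 0.60, adjusted p = 1.81e-05). The EGF family ligands on the list differed. HBEGF, a ligand bound by heparin, measured 16.7, 49.7 and 117 CPM at the edge against 4.44, 10.6 and 16.8 CPM in skin (log2 fold change 2.51 ± 0.45, adjusted p = 4.08e-04), whereas AREG did not pass and measured 6.02, 21.1 and 83.1 CPM at the edge against 3.71, 15.6 and 18.7 CPM in skin (log2 fold change 1.09 ± 0.53, adjusted p = 0.0977). The members that fell were EREG and TGFA. EREG measured 4.87, 19.3 and 33.1 CPM at the edge against 42.8, 54.5 and 59.7 CPM in skin (log2 fold change -1.47 ± 0.33, adjusted p = 0.00198). TGFA measured 5.16, 12.1 and 18.9 CPM at the edge against 15.5, 23.2 and 34.5 CPM in skin (log2 fold change -1.12 ± 0.27, adjusted p = 0.00332).

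KRT5, the type II keratin of basal cells, measured 5065, 7303 and 9875 CPM at the edge against 5966, 8139 and 10627 CPM in skin (log2 fold change -0.18 ± 0.16, adjusted p = 0.371), with overlapping groups. The list of basal keratinocyte and hemidesmosome genes had 6 of 17 tested genes higher and 5 lower (median 0.19), close to the shares over all genes, and 2 and 2 with the animal as a block. KRT14, also listed, was not found under this name. LAMB3, a laminin beta chain of the basement membrane, measured 83.1, 201 and 296 CPM at the edge against 80.8, 102 and 117 CPM in skin (log2 fold change 0.90 ± 0.24, adjusted p = 0.00572, 0.0558 with the animal as a block). ITGB6, an integrin subunit that activates TGF-beta, measured 7.05, 14.5 and 29.3 CPM at the edge against 5.16, 6.07 and 9.57 CPM in skin (log2 fold change 1.24 ± 0.29, adjusted p = 0.0027, 0.0922 with the animal as a block). The desmosomal cadherin DSC3 measured 472, 788 and 1653 CPM at the edge against 1160.0, 1758 and 1988 CPM in skin (log2 fold change -0.97 ± 0.25, adjusted p = 0.00523, 0.0757 with the animal as a block). KRT15, a basal keratin that also marks follicle stem cells, measured 6155, 10445 and 18262 CPM at the edge against 4894, 5671 and 7620.2 CPM in skin (log2 fold change 0.85 ± 0.22, adjusted p = 0.00554), with overlapping groups.

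Of 26 tested genes of suprabasal differentiation, 20 fell and 1 rose (median -1.08), and 13 fell and 1 rose with the animal as a block. FLG and LOR were on the list but were not found under these names. Of the members, KRT77, a keratin of the upper epidermis, and CST6, a cystatin of the cornified layer, fell most. KRT77 measured 24.2, 42.8 and 181 CPM at the edge against 699.6, 1105 and 1779 CPM in skin (log2 fold change -4.34 ± 0.48, adjusted p = 6.90e-06). CST6 measured 47.1, 61.1 and 285 CPM at the edge against 432, 1034 and 1423 CPM in skin (log2 fold change -3.24 ± 0.49, adjusted p = 9.96e-05). FLG2, a filaggrin relative of the granular layer, measured 150.2, 381 and 579 CPM at the edge against 1036, 2265 and 2870.5 CPM in skin (log2 fold change -2.55 ± 0.32, adjusted p = 1.97e-05). KRT80 measured 67.2, 170.3 and 233 CPM at the edge against 696, 865 and 1189 CPM in skin (log2 fold change -2.56 ± 0.25, adjusted p = 2.66e-06). In these 4 genes no edge sample reached the lowest skin sample. KRT1, the main type II keratin above the basal layer, overlapped between the groups and measured 5128, 6909.5 and 8155 CPM at the edge against 6279, 13723 and 22963 CPM in skin (log2 fold change -1.09 ± 0.23, adjusted p = 0.00135, 0.0776 with the animal as a block). KLK8, a protease that helps shed the surface cells, went against its list with 17, 29.8 and 46.7 CPM at the edge against 5.28, 10.4 and 28.5 CPM in skin (log2 fold change 1.27 ± 0.35, adjusted p = 0.00729).

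Among epidermal barrier lipid genes, 11 of 17 tested fell and 2 rose (median -1.43). ABCA12, which loads lipids into lamellar granules, measured 18.6, 36.4 and 72.7 CPM at the edge against 55, 101 and 152 CPM in skin (log2 fold change -1.43 ± 0.29, adjusted p = 9.20e-04). ALOXE3, a lipoxygenase that processes the lipids bound to cornified cells, measured 11.6, 23.4 and 30.8 CPM at the edge against 33, 90.03 and 121 CPM in skin (log2 fold change -2.02 ± 0.29, adjusted p = 5.63e-05). SDR9C7, which acts in the same pathway, measured 2.46, 5.98 and 7.16 CPM at the edge against 11.9, 20.7 and 28.6 CPM in skin (log2 fold change -1.97 ± 0.25, adjusted p = 1.90e-05). The ceramidase ACER1 measured 10.3, 24.4 and 31.6 CPM at the edge against 59, 113 and 141 CPM in skin (log2 fold change -2.35 ± 0.27, adjusted p = 1.09e-05). FA2H, which hydroxylates fatty acids, varied widely in skin and measured 0.63, 1.88 and 8.22 CPM at the edge against 4.18, 19.7 and 55.3 CPM in skin (log2 fold change -2.97 ± 0.76, adjusted p = 0.00454). Of the enzymes named here, ALOXE3, SDR9C7 and ACER1 did not overlap. ELOVL1, a fatty acid elongase, was among the members that rose (log2 fold change 0.74 ± 0.14, adjusted p = 5.48e-04).

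**Figure D2:**
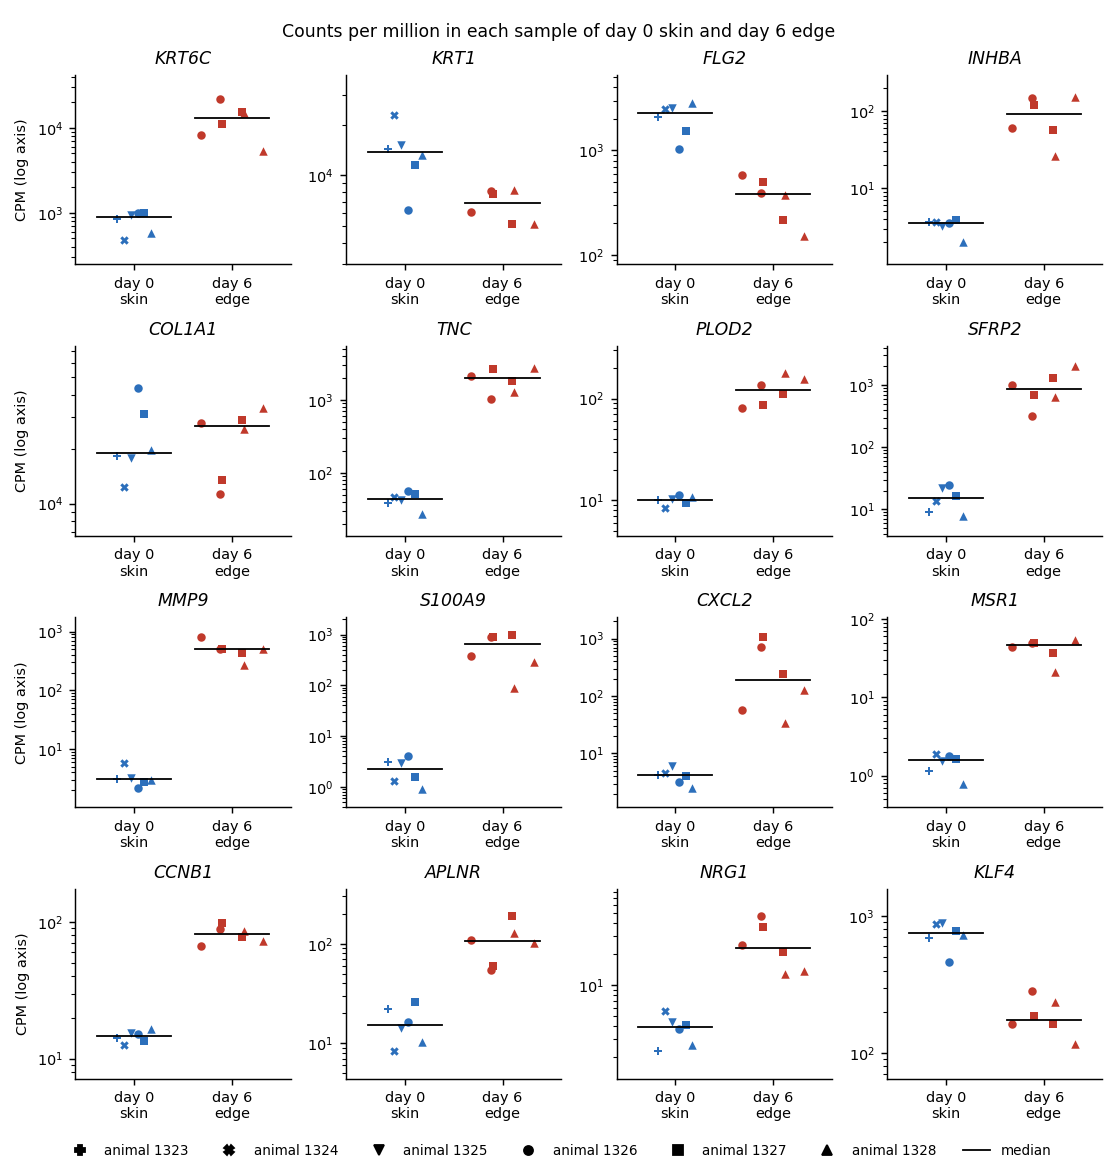
CPM of 16 genes on a log axis in the 6 day 0 skin samples and the 6 day 6 edge samples, with a marker shape per animal and a line at each median. COL1A1 and KRT1 overlapped between the groups, and the other 14 genes did not.

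RNA of hair follicle genes was close to absent at the edge. Of 28 listed symbols 24 were in the table and 21 were tested, and 20 of these fell (median -8.01), 12 of them without overlap. Members near 0 at the edge passed the filter on low counts through the skin samples, so this count describes the difference and adds no separate support. Summed over the list, skin held 319.5, 16608 and 23279 CPM and the edge 49.2, 81.1 and 257 CPM. The lowest skin value, 319.5 CPM, was that of animal 1324, while the other 5 skin samples held 5996 to 23279 CPM, and it was still above the highest edge value, that of animal 1326, wound B. With the skin of 1324 left out, 23 members were lower, and with only the skin of the 3 day 6 animals also 23.

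The 10 genes with the largest fall among those that met every condition of the naming rule all belong to the hair shaft and its inner root sheath. KRT71, KRT72, KRT73 and KRT74, type II keratins of the inner root sheath, lie next to each other between positions 1979609 and 2051575 of contig LUXX01048831.1 as the count table gives it, and such near copies can share reads. KRT71 measured 0, 0.315 and 2.36 CPM at the edge against 10.05, 4257 and 5729 CPM in skin (log2 fold change -12.03 ± 1.47, adjusted p = 1.67e-05). KRT74 had 66181 counts over the 6 skin libraries and 2 over the 6 edge libraries, a ratio of shares of 30120.4 with a 95% exact interval of 8338 to 248719 for counting error only. KRT27, a type I partner in the same sheath, measured 0.21, 1.21 and 3.26 CPM at the edge against 6.57, 4729 and 6357 CPM in skin (log2 fold change -11.50 ± 1.35, adjusted p = 1.24e-05). TCHH, trichohyalin, the protein that hardens the sheath, measured 0, 0.0276 and 0.121 CPM at the edge against 1.37, 526 and 630.3 CPM in skin (log2 fold change -13.15 ± 1.40, adjusted p = 5.39e-06). PADI3, which deiminates trichohyalin, measured 0, 0.116 and 0.544 CPM at the edge against 1.43, 66.4 and 89.9 CPM in skin (log2 fold change -8.26 ± 1.03, adjusted p = 2.01e-05). In each of these genes the skin of 1324 was the lowest of the skin samples. It was still above every edge sample, which the naming rule required, so this adds no separate support. KRT40, S100A3, VSIG8, KRT72 and KRT73, all known from the hair shaft or sheath, fell with log2 fold changes from -10.82 to -8.18.

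Glands differed less uniformly. Of 8 tested sweat and apocrine gland genes 4 fell (median -1.89), and 2 with only the skin of the 3 day 6 animals. AQP5, the water channel of sweat gland cells, measured 0.802, 4.02 and 9.55 CPM at the edge against 12.1, 20.4 and 37.6 CPM in skin (log2 fold change -2.42 ± 0.47, adjusted p = 7.28e-04). KRT7 measured 1.89, 6.54 and 35.1 CPM at the edge against 32.5, 60.9 and 92.2 CPM in skin (log2 fold change -2.38 ± 0.59, adjusted p = 0.00366). KRT18 measured 0.115, 0.997 and 7.18 CPM at the edge against 7.79, 10.9 and 18.3 CPM in skin (log2 fold change -2.23 ± 0.71, adjusted p = 0.0169), both keratins of simple gland epithelium. For KRT18 the adjusted p with only the skin of the 3 day 6 animals was 0.0880. PIP, a secreted apocrine protein, measured 0, 3.03 and 73.9 CPM at the edge against 24.6, 128 and 338 CPM in skin (log2 fold change -2.92 ± 1.15, adjusted p = 0.0452, 0.0653 with the animal as a block). This call was lost without any 1 of the edge of 1328 K, 1328 B, 1327 K, 1326 K or the skin of 1327, 1326, 1324, 1328, 1323 (0.0543 to 0.091). SCGB2A2, a secretoglobin, did not pass, with 0, 0.477 and 15.5 CPM at the edge against 0.228, 7.59 and 47.8 CPM in skin (log2 fold change -1.51 ± 1.23, adjusted p = 0.314). Summed over the list, wounds B of animals 1326 and 1327 held 208 and 261 CPM and the other edge samples 29.1 to 79.6, against 246 to 627 CPM in skin.

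Sebaceous gland genes went different ways: of 9 tested, 2 rose and 1 fell (median 0.14). AWAT2, a wax synthase specific to the gland, had 146 counts over the skin libraries and 3 over the edge libraries, a ratio of 44.3 with a 95% exact interval of 14.9 to 217. When the skin of 1324, 1328 or 1323 or any 1 edge library was left out, 2 or 3 members fell. The members that rose are also made in other cells. SOAT1, which esterifies cholesterol in macrophages too, measured 40.1, 47.7 and 53.9 CPM at the edge against 2.28, 3.96 and 4.65 CPM in skin (log2 fold change 3.61 ± 0.19, adjusted p = 5.41e-08). FADS2, a fatty acid desaturase, measured 19.7, 30.6 and 45.1 CPM at the edge against 2.85, 7.44 and 8.36 CPM in skin (log2 fold change 2.16 ± 0.28, adjusted p = 3.16e-05). MC5R, the melanocortin receptor of the gland, measured 0, 0.816 and 2.42 CPM at the edge against 0.457, 1.86 and 2.38 CPM in skin (log2 fold change -0.94 ± 0.74, adjusted p = 0.30).

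**Figure D3:**
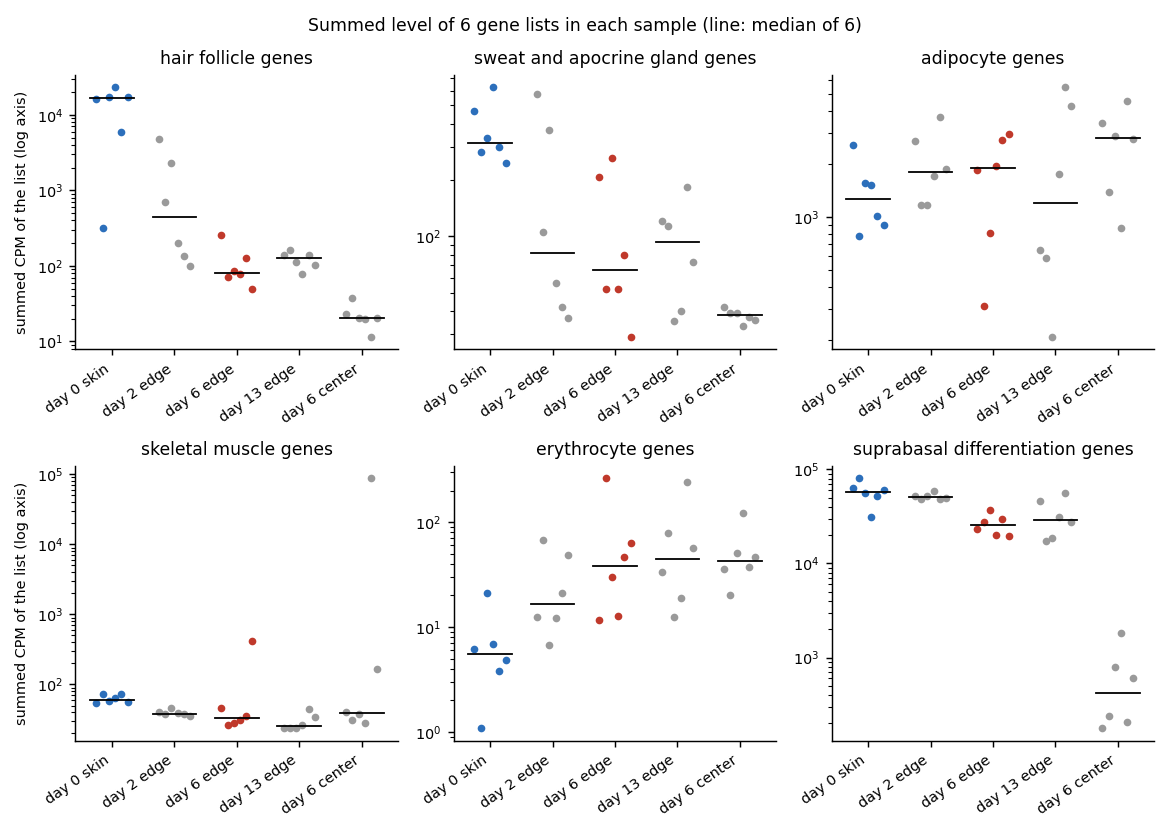
Summed CPM of 6 gene lists (log axis), 1 point per sample, in day 0 skin, the edge on days 2, 6 and 13, and the day 6 center. The skin of 1324 lies below the other skin samples in the hair follicle list, and for the skeletal muscle genes the edge of 1328 K (414 CPM) and the center of 1328 B (87589.8 CPM) lie apart.

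Matrix genes rose as a list, but not the 3 most abundant collagens. Of 29 genes of fibrillar and granulation tissue matrix, all tested, 19 rose and 2 fell (median 1.58), and in 16 every edge sample lay above skin. COL1A1, the main chain of type I collagen, measured 11365, 26899 and 33993 CPM at the edge against 12313, 19115 and 43542 CPM in skin (log2 fold change -0.085 ± 0.34, adjusted p = 0.849), with edge samples on either side of the skin median. COL1A2, its partner, measured 8046, 16279 and 25707 CPM at the edge against 10118, 16848 and 33891 CPM in skin (log2 fold change -0.39 ± 0.35, adjusted p = 0.355). COL3A1, type III collagen, measured 10616, 20698 and 29706 CPM at the edge against 13963, 20455 and 36706 CPM in skin (log2 fold change -0.31 ± 0.30, adjusted p = 0.399). These 3 took the largest shares of the edge counts, 2.36% ± 0.91 (SD, n = 6) for COL1A1, followed by KRT6C and KRT15, and such shares also grow with transcript length.

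TNC, tenascin-C, a glycoprotein of provisional matrix, showed the largest change of the list, with 1033, 2009 and 2753 CPM at the edge against 27.6, 44.3 and 56.8 CPM in skin (log2 fold change 5.42 ± 0.30, adjusted p = 8.08e-08). SPP1, osteopontin, which macrophages also make, measured 62.3, 489.8 and 1022 CPM at the edge against 6.79, 16.3 and 24.3 CPM in skin (log2 fold change 4.89 ± 0.64, adjusted p = 2.74e-05). CTHRC1, a marker of activated fibroblasts, measured 102, 215 and 270.3 CPM at the edge against 13.5, 32.3 and 51.3 CPM in skin (log2 fold change 2.48 ± 0.34, adjusted p = 3.91e-05). ASPN, a small proteoglycan that binds collagen, measured 296, 659 and 1418 CPM at the edge against 36.1, 82.4 and 114 CPM in skin (log2 fold change 3.11 ± 0.45, adjusted p = 6.64e-05). None of these 4 overlapped between the groups. Against the list, POSTN, periostin, was lower with 335, 1017 and 2327 CPM at the edge against 2736, 3656 and 6257 CPM in skin (log2 fold change -1.72 ± 0.40, adjusted p = 0.00241). DCN, decorin, was lower too with 851, 1501 and 1983 CPM at the edge against 1686, 2329 and 4158 CPM in skin (log2 fold change -0.97 ± 0.28, adjusted p = 0.00937).

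Genes that process and crosslink collagen rose together, 18 of 23 tested (median 1.40), 15 of them without overlap. PLOD2, the lysyl hydroxylase of the collagen telopeptides, measured 81, 123 and 177 CPM at the edge against 8.28, 10.1 and 11.3 CPM in skin (log2 fold change 3.59 ± 0.21, adjusted p = 8.76e-08). P4HA1 and P4HA3 are alpha subunits of prolyl 4-hydroxylase. P4HA1 measured 128, 169 and 207 CPM at the edge against 27.5, 46.1 and 59.4 CPM in skin (log2 fold change 1.82 ± 0.18, adjusted p = 3.16e-06). P4HA3 measured 35.4, 63.5 and 79.9 CPM at the edge against 2.8, 4.61 and 12.3 CPM in skin (log2 fold change 3.38 ± 0.36, adjusted p = 6.10e-06). LOXL2, a lysyl oxidase that forms crosslinks, measured 191, 349 and 468 CPM at the edge against 27.9, 39.6 and 63.2 CPM in skin (log2 fold change 2.95 ± 0.27, adjusted p = 1.81e-06). Its relative LOXL3 measured 8.53, 15.8 and 17.5 CPM at the edge against 1.26, 2.5 and 4.23 CPM in skin (log2 fold change 2.43 ± 0.27, adjusted p = 7.07e-06). All 5 were higher in every edge sample than in any skin sample.

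Of 15 tested elastic fiber genes 4 were higher and 5 lower (median 0.24), close to the shares over all genes. ELN, elastin itself, measured 26.1, 78.7 and 375 CPM at the edge against 337, 406 and 755 CPM in skin (log2 fold change -1.96 ± 0.52, adjusted p = 0.00558). MFAP5, a microfibril protein, and LTBP4, which is needed to assemble elastin, also fell. MFAP5 measured 4.84, 11.7 and 22.2 CPM at the edge against 48, 65.2 and 90.4 CPM in skin (log2 fold change -2.45 ± 0.35, adjusted p = 5.54e-05). LTBP4 measured 65.4, 104 and 190.1 CPM at the edge against 412, 458 and 618 CPM in skin (log2 fold change -2.19 ± 0.25, adjusted p = 8.59e-06). EMILIN1, a glycoprotein at the elastin surface, rose instead, with 181, 372 and 598 CPM at the edge against 53, 59 and 86.9 CPM in skin (log2 fold change 2.44 ± 0.28, adjusted p = 9.32e-06).

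Of 26 tested genes of metalloproteinases, their inhibitors and the plasminogen system, 18 rose and 2 fell (median 1.62). The collagenase MMP1 measured 139.5, 321 and 965 CPM at the edge against 0.30, 0.498 and 0.628 CPM in skin (log2 fold change 9.64 ± 0.56, adjusted p = 8.76e-08). MMP13, another collagenase, measured 26.6, 99.6 and 164 CPM at the edge against 0, 0.406 and 0.628 CPM in skin (log2 fold change 7.98 ± 0.58, adjusted p = 3.30e-07). The gelatinase MMP9, which neutrophils and keratinocytes make, measured 266, 508 and 812 CPM at the edge against 2.19, 3.04 and 5.77 CPM in skin (log2 fold change 7.19 ± 0.31, adjusted p = 1.80e-08). MMP12, the macrophage elastase, measured 23.4, 58.5 and 132 CPM at the edge against 0.0526, 0.861 and 4.51 CPM in skin (log2 fold change 5.44 ± 0.70, adjusted p = 2.46e-05). All 4 were within a few CPM of 0 in skin and higher in every edge sample. MMP1 and MMP13 lie on the same contig, LUXX01036107.1, at 2458848 to 2501670 and 2344904 to 2363889. TIMP3, an inhibitor bound to the matrix, went against the list with 5.26, 11.1 and 29.7 CPM at the edge against 38.6, 66 and 93.8 CPM in skin (log2 fold change -2.38 ± 0.37, adjusted p = 1.12e-04).

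Among 14 tested genes of myofibroblasts and smooth muscle, 6 rose and 5 fell (median -0.16). ACTA2, alpha smooth muscle actin, did not pass and measured 199, 269.7 and 445 CPM at the edge against 287, 393 and 576 CPM in skin (log2 fold change -0.51 ± 0.23, adjusted p = 0.083). Without the edge of 1326 B its adjusted p was 0.0317. MYH11 and ACTG2, myosin and actin of mature smooth muscle, both fell. MYH11 measured 16.4, 47.7 and 145 CPM at the edge against 286, 342 and 532 CPM in skin (log2 fold change -2.79 ± 0.40, adjusted p = 6.24e-05). ACTG2 measured 16.1, 35 and 71.8 CPM at the edge against 109, 342 and 504 CPM in skin (log2 fold change -3.10 ± 0.44, adjusted p = 5.74e-05). CDH11, a cadherin of activated fibroblasts, measured 195, 341 and 423 CPM at the edge against 32.1, 47.9 and 65.2 CPM in skin (log2 fold change 2.69 ± 0.25, adjusted p = 1.76e-06). TGFBI, a matrix protein that TGF-beta induces, measured 846, 1272 and 1765 CPM at the edge against 191, 224 and 343 CPM in skin (log2 fold change 2.30 ± 0.23, adjusted p = 2.98e-06). The last 4 did not overlap.

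In the TGF-beta and activin list 7 of 17 tested genes rose and 4 fell (median 0.20). INHBA, the activin A subunit, measured 26.5, 91.1 and 151 CPM at the edge against 2.04, 3.58 and 3.84 CPM in skin (log2 fold change 4.75 ± 0.41, adjusted p = 1.11e-06). The ligand TGFB1 measured 74.8, 146 and 164 CPM at the edge against 26.6, 30.00 and 38.6 CPM in skin (log2 fold change 2.10 ± 0.17, adjusted p = 6.94e-07). GREM1, a BMP antagonist, rose with 34.1, 79.1 and 271 CPM at the edge against 8.25, 14.5 and 26.2 CPM in skin (log2 fold change 2.56 ± 0.47, adjusted p = 4.36e-04). BMP2, a BMP ligand, fell with 5.1, 7.82 and 10.7 CPM at the edge against 24, 32.3 and 37.7 CPM in skin (log2 fold change -2.06 ± 0.19, adjusted p = 1.83e-06). None of the 4 overlapped.

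Growth factor genes had 11 of 21 tested higher and 5 lower (median 0.76), but 6 and 3 with the animal as a block. NRG1, a ligand of the ERBB receptors, measured 12.9, 22.8 and 46.6 CPM at the edge against 2.3, 3.94 and 5.65 CPM in skin (log2 fold change 2.70 ± 0.33, adjusted p = 1.67e-05). ANGPT1, which steadies vessels through TIE2, measured 12.3, 14.3 and 19.1 CPM at the edge against 2.17, 2.84 and 5.27 CPM in skin (log2 fold change 2.21 ± 0.23, adjusted p = 4.56e-06). HGF, a motility factor for epithelium, measured 6.31, 14.1 and 33.9 CPM at the edge against 2.61, 3.54 and 5.22 CPM in skin (log2 fold change 2.06 ± 0.36, adjusted p = 3.28e-04). These 3 lay above skin in every edge sample. The calls of FGF1 (log2 fold change 1.46 ± 0.37, adjusted p = 0.00468, 0.074 with the animal as a block) and IGF1 (log2 fold change 2.16 ± 0.48, adjusted p = 0.00196, 0.0747 with the animal as a block) were lost with the block. EGFR, the receptor of the EGF family ligands, was lower with 108, 149 and 212 CPM at the edge against 283, 373 and 399.7 CPM in skin (log2 fold change -1.33 ± 0.15, adjusted p = 7.67e-06).

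Of 23 tested WNT pathway genes 4 rose and 9 fell (median -0.26). SFRP2, a secreted WNT modulator of fibroblasts, measured 318, 858 and 2017 CPM at the edge against 7.91, 14.9 and 24.2 CPM in skin (log2 fold change 5.96 ± 0.50, adjusted p = 8.96e-07). SFRP4 measured 15.4, 157 and 749 CPM at the edge against 9.36, 15.4 and 34.3 CPM in skin (log2 fold change 3.66 ± 0.71, adjusted p = 6.69e-04). WNT5A, a ligand of the non-canonical branch, measured 61, 191 and 345 CPM at the edge against 19.4, 25.2 and 30.02 CPM in skin (log2 fold change 2.97 ± 0.33, adjusted p = 7.81e-06). WNT2 measured 6.01, 7.15 and 9.97 CPM at the edge against 0.315, 1.78 and 4.25 CPM in skin (log2 fold change 1.91 ± 0.42, adjusted p = 0.00168). The largest fall was that of WNT11, another non-canonical ligand, with 0.21, 1.38 and 1.99 CPM at the edge against 2.17, 19.2 and 24.6 CPM in skin (log2 fold change -3.72 ± 0.66, adjusted p = 3.27e-04). SFRP4 overlapped between the groups and the other 4 did not.

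Genes of neutrophils, macrophages and T cells were higher at the edge. Of 12 tested neutrophil genes 10 rose (median 3.72), of which S100A8, S100A9 and S100A12 are also on the keratinocyte list and MMP9 on the protease list. CSF3R, the G-CSF receptor, measured 14.7, 47.7 and 136 CPM at the edge against 1.2, 2.16 and 5.31 CPM in skin (log2 fold change 4.27 ± 0.56, adjusted p = 2.98e-05). Every edge sample lay above skin. The members that did not pass were ELANE and LTF. ELANE, neutrophil elastase, measured 1.72, 2.16 and 3.14 CPM at the edge against 1.82, 3.55 and 4.52 CPM in skin (log2 fold change -0.57 ± 0.27, adjusted p = 0.0864). LTF, lactoferrin, which glands also make, measured 1.72, 39.6 and 219 CPM at the edge against 8.39, 23.4 and 33.1 CPM in skin (log2 fold change 1.67 ± 0.72, adjusted p = 0.0635).

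Among macrophage genes 21 of 24 tested rose (median 1.76), and 16 with the animal as a block. MARCO, a scavenger receptor for bacteria, measured 3.09, 6.89 and 14.1 CPM at the edge against 0, 0 and 0.187 CPM in skin (log2 fold change 7.19 ± 0.73, adjusted p = 3.94e-06). MSR1, scavenger receptor A, measured 21.1, 46.7 and 53.3 CPM at the edge against 0.779, 1.58 and 1.88 CPM in skin (log2 fold change 4.79 ± 0.27, adjusted p = 8.26e-08). TREM2, a lipid-sensing receptor, measured 4.79, 6.75 and 10.4 CPM at the edge against 0.233, 0.652 and 1.21 CPM in skin (log2 fold change 3.36 ± 0.38, adjusted p = 8.21e-06). CD68, a lysosomal marker of macrophages, measured 25.9, 53 and 63.2 CPM at the edge against 8.96, 14.2 and 17.9 CPM in skin (log2 fold change 1.82 ± 0.22, adjusted p = 1.77e-05). All 4 lay above skin in every edge sample, which for MARCO, near 0 in skin, adds no separate support. APOE and GPNMB did not pass, with log2 fold change -0.68 ± 0.36, adjusted p = 0.128 and log2 fold change -0.099 ± 0.17, adjusted p = 0.633, and both are also expressed in other skin cells.

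T and NK lymphocyte genes rose in 18 of 21 tested (median 2.66), all 18 without overlap. Some, such as ICOS and CD8B, were near 0 in skin and passed the filter on low counts through the edge samples. For them the count and the lack of overlap add no separate support. CD3D, a chain of the T cell receptor complex, measured 7.19, 9.62 and 21.5 CPM at the edge against 0.526, 1.68 and 2.58 CPM in skin (log2 fold change 2.80 ± 0.40, adjusted p = 5.44e-05). CCR7, the homing receptor of naive and memory T cells and of mature dendritic cells, measured 2.62, 16.7 and 29.9 CPM at the edge against 0.327, 0.576 and 1.26 CPM in skin (log2 fold change 4.65 ± 0.58, adjusted p = 1.97e-05). The costimulator ICOS measured 1.51, 2.59 and 6.03 CPM at the edge against 0, 0.0263 and 0.187 CPM in skin (log2 fold change 5.45 ± 0.67, adjusted p = 1.73e-05). IL7R measured 5.71, 14.2 and 29.2 CPM at the edge against 0.637, 0.943 and 2.8 CPM in skin (log2 fold change 3.47 ± 0.48, adjusted p = 4.34e-05). CD8B, of cytotoxic T cells, measured 0.786, 2.25 and 4.84 CPM at the edge against 0, 0.0263 and 0.318 CPM in skin (log2 fold change 4.82 ± 0.76, adjusted p = 1.32e-04). Levels stayed low, and the highest of these 5 genes was CCR7 with 29.9 CPM in 1 edge sample.

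B and plasma cell genes had 6 of 13 tested higher and 1 lower (median 1.40), although the summed level, which a few abundant members carry, was 597, 695 and 790.0 CPM at the edge and 711, 758 and 831 CPM in skin. IGHM, the heavy chain of IgM, measured 19.2, 26.7 and 42.4 CPM at the edge against 4.78, 5.64 and 8.83 CPM in skin (log2 fold change 2.13 ± 0.24, adjusted p = 8.24e-06). PAX5, BLK and MS4A1, of B cells, had log2 fold changes of 3.05, 2.47 and 2.87, but all 3 overlapped and the call of MS4A1 was lost with the block (adjusted p = 0.0877). The member that fell, SDC1, a syndecan of plasma cells, is also abundant in keratinocytes (log2 fold change -0.50 ± 0.14, adjusted p = 0.00703).

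Of 12 tested genes of dendritic and Langerhans cells 9 rose and 1 fell (median 1.84). CD1E, an antigen-presenting molecule of dendritic cells, measured 2.45, 8.21 and 11.1 CPM at the edge against 0.21, 0.52 and 1.88 CPM in skin (log2 fold change 3.39 ± 0.51, adjusted p = 9.54e-05). CCL17, a chemokine for T cells, measured 0.702, 1.1 and 2.54 CPM at the edge against 0, 0 and 0.315 CPM in skin (log2 fold change 3.83 ± 0.79, adjusted p = 0.00105). FSCN1, an actin bundler of mature dendritic cells that other migrating cells also use, measured 642, 985 and 1219.6 CPM at the edge against 105, 139.7 and 177 CPM in skin (log2 fold change 2.74 ± 0.19, adjusted p = 2.16e-07). CD207, langerin, the defining marker of Langerhans cells, was the member that fell, with 0.967, 1.6 and 2.82 CPM at the edge against 1.07, 5.2 and 13.1 CPM in skin (log2 fold change -1.71 ± 0.47, adjusted p = 0.00757, 0.057 with the animal as a block). In the mast cell list KIT was the 1 of 6 tested that rose (log2 fold change 0.75 ± 0.28, adjusted p = 0.037, 0.349 with the animal as a block), and that call was lost without any 1 of the edge of 1328 K, 1328 B, 1327 K, 1326 B or the skin of 1324, 1328, 1323 (0.0559 to 0.0784). KIT is on the melanocyte list too.

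Cytokine genes rose in 20 of 26 tested and fell in 1, the decoy receptor IL1R2 (log2 fold change -0.94 ± 0.31, adjusted p = 0.0195, 0.137 with the animal as a block), with a median of 2.14. IL1B measured 2.35, 24 and 166 CPM at the edge against 0, 0.0467 and 0.127 CPM in skin (log2 fold change 9.38 ± 1.33, adjusted p = 5.58e-05). Its relative IL1A, which keratinocytes store, measured 16.6, 42.5 and 181 CPM at the edge against 10.1, 16.7 and 23.3 CPM in skin (log2 fold change 2.07 ± 0.54, adjusted p = 0.00537, 0.114 with the animal as a block). IL6 measured 1.48, 20.3 and 27.9 CPM at the edge against 0, 0.175 and 0.914 CPM in skin (log2 fold change 5.97 ± 0.74, adjusted p = 1.81e-05). IL11, a cytokine of the IL-6 family that acts on fibroblasts, measured 1.48, 69.9 and 181 CPM at the edge against 0.0637, 0.307 and 0.514 CPM in skin (log2 fold change 7.77 ± 0.96, adjusted p = 1.86e-05). IL24, a keratinocyte cytokine of the IL-10 family, had 1 count over the skin libraries and 435 over the edge libraries, a ratio of 478 with a 95% exact interval of 85.3 to 18919. IL1A overlapped between the groups, and the other 4 did not. Those 4 were near 0 in skin and passed the filter on low counts through the edge samples. For them the lack of overlap adds no separate support. Edge samples differed widely in these genes, and the lowest IL11 value, 1.48 CPM, was that of 1328 B, against 181 CPM in 1326 K.

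Of 26 tested chemokine and receptor genes 16 rose and 3 fell (median 2.21). CXCL8 and CXCL2 attract neutrophils. CXCL8 measured 122, 572 and 2848 CPM at the edge against 0, 0.0989 and 0.573 CPM in skin (log2 fold change 12.48 ± 1.08, adjusted p = 1.15e-06). CXCL2 measured 33.6, 187 and 1086 CPM at the edge against 2.52, 4.14 and 6.12 CPM in skin (log2 fold change 6.45 ± 0.84, adjusted p = 2.75e-05). CCL20, an attractant of CCR6-bearing lymphocytes, measured 0.967, 5.78 and 17.7 CPM at the edge against 0.0571, 0.124 and 0.368 CPM in skin (log2 fold change 5.43 ± 0.75, adjusted p = 4.70e-05). The receptor CCR1 of myeloid cells measured 26.7, 68.5 and 118 CPM at the edge against 1.37, 1.82 and 2.58 CPM in skin (log2 fold change 5.14 ± 0.32, adjusted p = 1.13e-07). All 4 were higher in every edge sample, which for CXCL8 and CCL20, near 0 in skin, adds no separate support. Against the list, CXCL13, the B cell attractant, fell with 0.281, 1.19 and 10.5 CPM at the edge against 6.68, 31.5 and 59.2 CPM in skin (log2 fold change -3.58 ± 0.76, adjusted p = 0.00136). The epithelial chemokines CCL28 (log2 fold change -1.44 ± 0.34, adjusted p = 0.00278) and CCL26 (log2 fold change -2.81 ± 0.78, adjusted p = 0.00767, 0.184 with the animal as a block) fell too.

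Interferon-stimulated genes rose in 22 of 25 tested (median 1.21), by smaller steps than the cytokines. ISG15, a ubiquitin-like modifier, measured 22.5, 42.7 and 69.7 CPM at the edge against 8.83, 16.8 and 25 CPM in skin (log2 fold change 1.32 ± 0.27, adjusted p = 0.00108). MX2, a GTPase against viruses, measured 35.4, 46.9 and 55.2 CPM at the edge against 9.02, 12.1 and 20.3 CPM in skin (log2 fold change 1.65 ± 0.22, adjusted p = 3.55e-05). The ISG15 ligase HERC5 measured 11.1, 22.5 and 35.7 CPM at the edge against 5.09, 7.19 and 9.55 CPM in skin (log2 fold change 1.58 ± 0.29, adjusted p = 4.49e-04). IDO1, which breaks down tryptophan, measured 1.14, 3.59 and 20.7 CPM at the edge against 0, 0.221 and 0.368 CPM in skin (log2 fold change 4.91 ± 0.76, adjusted p = 1.12e-04). IFIT2 measured 8.76, 16 and 63.1 CPM at the edge against 5.08, 6.14 and 7.31 CPM in skin (log2 fold change 1.76 ± 0.42, adjusted p = 0.00297, 0.0737 with the animal as a block). ISG15 alone of these 5 overlapped between the groups.

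Antimicrobial and secreted defense genes had 9 of 13 tested higher and 2 lower (median 1.38), and 6 higher and 0 lower with the animal as a block. SLPI, an inhibitor of neutrophil elastase, measured 34.4, 49.2 and 72.8 CPM at the edge against 3.83, 7.48 and 10.2 CPM in skin (log2 fold change 2.82 ± 0.28, adjusted p = 3.11e-06). LPO, lactoperoxidase, measured 3.36, 16.5 and 32.8 CPM at the edge against 0, 0.0637 and 0.958 CPM in skin (log2 fold change 6.10 ± 0.85, adjusted p = 5.06e-05). CHI3L1, a chitinase-like protein, measured 1.1, 1.8 and 5.28 CPM at the edge against 0.0934, 0.323 and 0.742 CPM in skin (log2 fold change 2.77 ± 0.50, adjusted p = 3.88e-04). CFB, a complement factor, measured 0.842, 9.23 and 10.8 CPM at the edge against 0.764, 1.17 and 2.1 CPM in skin (log2 fold change 2.45 ± 0.47, adjusted p = 6.81e-04, 0.0508 with the animal as a block). Of complement and coagulation genes 11 of 27 tested rose and 2 fell (median 0.48), and 6 rose with the block. C5AR1, the receptor of the anaphylatoxin C5a, measured 44.8, 63.2 and 104 CPM at the edge against 5.82, 9.89 and 12.3 CPM in skin (log2 fold change 2.82 ± 0.26, adjusted p = 1.85e-06), again without overlap. C2 measured 9.05, 45.7 and 65.6 CPM at the edge against 3.71, 7.41 and 11.1 CPM in skin (log2 fold change 2.36 ± 0.41, adjusted p = 2.93e-04). C4A measured 7.37, 354 and 602 CPM at the edge against 29.4, 49.2 and 79.7 CPM in skin (log2 fold change 2.68 ± 0.70, adjusted p = 0.00532, 0.102 with the animal as a block). C1R had a log2 fold change 1.10 ± 0.26, adjusted p = 0.00279, 0.0832 with the animal as a block.

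Cell cycle genes rose in 37 of 39 tested (median 1.51), 32 of them without overlap, and in the same number with the animal as a block. MKI67, a marker of dividing cells, measured 81.6, 129.7 and 147 CPM at the edge against 30.3, 41.8 and 56.6 CPM in skin (log2 fold change 1.45 ± 0.18, adjusted p = 1.86e-05). CCNB1, cyclin B1 of mitotic entry, measured 66.5, 82 and 99.1 CPM at the edge against 12.7, 14.6 and 16.5 CPM in skin (log2 fold change 2.43 ± 0.12, adjusted p = 3.23e-08). Its kinase CDK1 measured 33.2, 44.5 and 53.7 CPM at the edge against 6.82, 8.38 and 12.8 CPM in skin (log2 fold change 2.25 ± 0.17, adjusted p = 5.14e-07). PLK1, a mitotic kinase, measured 38.5, 62 and 66.3 CPM at the edge against 7.04, 10.2 and 11.3 CPM in skin (log2 fold change 2.57 ± 0.16, adjusted p = 1.13e-07). RRM2, which makes deoxynucleotides for replication, measured 130.3, 164 and 209 CPM at the edge against 24.7, 31.5 and 36.2 CPM in skin (log2 fold change 2.37 ± 0.14, adjusted p = 8.76e-08). All 5 lay above skin in every edge sample. The members that did not pass were CCND1, cyclin D1 (log2 fold change -0.38 ± 0.16, adjusted p = 0.0535), and TYMS, thymidylate synthase (log2 fold change 0.44 ± 0.19, adjusted p = 0.0704).

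Of 21 tested genes of hypoxia and glycolysis 13 rose (median 0.84). SLC2A3, a glucose transporter of leukocytes, measured 60.1, 179 and 486 CPM at the edge against 13.1, 17 and 26 CPM in skin (log2 fold change 3.62 ± 0.45, adjusted p = 1.95e-05). SLC16A3, a lactate exporter, measured 4.1, 42.6 and 63.3 CPM at the edge against 1.6, 2.57 and 4.59 CPM in skin (log2 fold change 3.75 ± 0.51, adjusted p = 4.30e-05). LDHA, lactate dehydrogenase, measured 542, 785 and 1129 CPM at the edge against 174, 208 and 282 CPM in skin (log2 fold change 1.87 ± 0.19, adjusted p = 3.81e-06). ADM, adrenomedullin, measured 17.5, 34.8 and 56.9 CPM at the edge against 5.25, 8.6 and 12.2 CPM in skin (log2 fold change 1.94 ± 0.27, adjusted p = 5.63e-05). SLC16A3 overlapped with skin in its lowest edge sample. HK2, hexokinase 2, did not pass with 60.2, 81.9 and 163 CPM at the edge against 22.9, 62 and 92.9 CPM in skin (log2 fold change 0.55 ± 0.31, adjusted p = 0.145). It had an adjusted p of 0.0481 without the skin of 1326.

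Oxidative stress defense genes had 11 of 24 tested higher and 2 lower (median 0.23). HMOX1, which breaks down heme, measured 122, 269 and 555 CPM at the edge against 8.91, 18.9 and 24.9 CPM in skin (log2 fold change 4.04 ± 0.38, adjusted p = 2.26e-06). SOD2, the mitochondrial superoxide dismutase, measured 448, 704 and 885 CPM at the edge against 95, 105 and 124 CPM in skin (log2 fold change 2.70 ± 0.16, adjusted p = 8.76e-08). Of the glutathione peroxidases GPX1, GPX4 and GPX8 rose, and GPX2 and GPX3 did not pass. GPX1 measured 329.6, 394 and 494 CPM at the edge against 52.2, 72.3 and 155 CPM in skin (log2 fold change 2.23 ± 0.23, adjusted p = 4.83e-06). GPX8 measured 66.2, 88.6 and 117 CPM at the edge against 17.8, 25.1 and 30.3 CPM in skin (log2 fold change 1.87 ± 0.18, adjusted p = 2.75e-06). HMOX1, SOD2, GPX1 and GPX8 did not overlap, whereas NQO1 did (log2 fold change 1.75 ± 0.52, adjusted p = 0.0117, 0.205 with the animal as a block). Among prostaglandin and leukotriene genes 7 of 17 tested rose and 3 fell (median 0.37). The inducible cyclooxygenase PTGS2 measured 11.8, 40.9 and 142 CPM at the edge against 7.16, 13.4 and 27.4 CPM in skin (log2 fold change 1.98 ± 0.55, adjusted p = 0.00787). Its partner PTGES, which makes PGE2, measured 15.6, 26.5 and 31.3 CPM at the edge against 3.03, 5.999 and 9.62 CPM in skin (log2 fold change 1.94 ± 0.25, adjusted p = 2.35e-05). The constitutive PTGS1 measured 8.54, 12.5 and 16.3 CPM at the edge against 7.75, 11.3 and 17.9 CPM in skin (log2 fold change 0.048 ± 0.21, adjusted p = 0.86). TBXAS1, thromboxane synthase, rose (log2 fold change 1.91 ± 0.33, adjusted p = 2.80e-04), and the phospholipase PLA2G4B fell (log2 fold change -1.55 ± 0.18, adjusted p = 1.01e-05).

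Immediate early and AP-1 genes fell more often than they rose, 7 against 2 of 19 tested (median -0.15), and 5 against 2 with the block. KLF4, a transcription factor of the upper epidermis, measured 116, 174 and 281 CPM at the edge against 463, 753 and 891 CPM in skin (log2 fold change -2.01 ± 0.21, adjusted p = 4.43e-06). EGR3 measured 4.77, 5.8 and 11.6 CPM at the edge against 22.5, 27.5 and 36.4 CPM in skin (log2 fold change -2.18 ± 0.23, adjusted p = 4.31e-06). FOSL1, an AP-1 subunit, rose with 11.3, 25.9 and 84.5 CPM at the edge against 0.359, 0.876 and 3.08 CPM in skin (log2 fold change 4.68 ± 0.62, adjusted p = 3.07e-05). The nuclear receptor NR4A1 measured 12.3, 79.7 and 235 CPM at the edge against 8.72, 17.9 and 28.3 CPM in skin (log2 fold change 2.56 ± 0.54, adjusted p = 0.00136). FOS measured 64.4, 145 and 246 CPM at the edge against 146, 232 and 663 CPM in skin (log2 fold change -1.03 ± 0.40, adjusted p = 0.0411, 0.12 with the animal as a block, 0.0714 with the wounds of an animal summed). Its call was lost without any 1 of the edge of 1328 K, 1328 B, 1327 K, 1326 B or the skin of 1327, 1325 (0.0584 to 0.135). Cholesterol synthesis genes had 6 of 22 tested higher and 4 lower (median 0.10), close to or below the shares over all genes, and 3 each with the block. HSD17B7 (log2 fold change 0.99 ± 0.21, adjusted p = 0.00148) rose. MVK rose too (log2 fold change 0.87 ± 0.21, adjusted p = 0.00368, 0.053 with the animal as a block). FDPS measured 1.61, 3.54 and 4.85 CPM at the edge against 0.946, 1.28 and 3.6 CPM in skin (log2 fold change 0.95 ± 0.37, adjusted p = 0.0453, 0.082 with the wounds of an animal summed). That call was lost without any 1 of the edge of 1328 K, 1327 K, 1327 B, 1326 K or the skin of 1327, 1326, 1324, 1325, 1328 (0.055 to 0.104).

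Blood vessel endothelial genes rose in 23 of 26 tested (median 1.38), and in 18 with the animal as a block. PECAM1, a junction protein of all endothelium, measured 291, 357 and 521 CPM at the edge against 125, 168 and 206 CPM in skin (log2 fold change 1.17 ± 0.17, adjusted p = 7.17e-05). APLNR, the apelin receptor of sprouting vessels, measured 55, 106 and 191 CPM at the edge against 8.28, 15.3 and 26.3 CPM in skin (log2 fold change 2.67 ± 0.36, adjusted p = 4.17e-05). ESM1, a tip cell gene, measured 6.69, 9.93 and 15.5 CPM at the edge against 0.522, 0.852 and 1.49 CPM in skin (log2 fold change 3.38 ± 0.33, adjusted p = 2.81e-06). SELP and SELE are selectins that catch leukocytes from the blood. SELP measured 7.24, 15.4 and 24.6 CPM at the edge against 0.40, 1.06 and 2.58 CPM in skin (log2 fold change 3.50 ± 0.40, adjusted p = 1.02e-05). SELE measured 10.2, 24.3 and 66.9 CPM at the edge against 1.67, 3.19 and 4.78 CPM in skin (log2 fold change 3.15 ± 0.40, adjusted p = 2.41e-05). All 5 lay above skin in every edge sample. The members that did not pass included VWF and ACKR1, a chemokine-binding protein of venules, with log2 fold change 0.45 ± 0.86, adjusted p = 0.681 and log2 fold change -0.084 ± 0.40, adjusted p = 0.873. VWF had few counts, with an edge mean of at most 1.79 CPM on any day, so its result says little. Lymphatic genes had 2 of 8 tested higher (median 0.77). PDPN, which activated fibroblasts and keratinocytes also make, measured 136, 169 and 222 CPM at the edge against 34.8, 41.1 and 66.4 CPM in skin (log2 fold change 1.87 ± 0.18, adjusted p = 2.50e-06). LYVE1 measured 11.2, 17.5 and 26.1 CPM at the edge against 3.41, 8.9 and 10.6 CPM in skin (log2 fold change 1.08 ± 0.26, adjusted p = 0.00341, 0.0526 with the animal as a block). PROX1, the defining factor of lymphatic endothelium, measured 1.26, 3.51 and 5.71 CPM at the edge against 0.934, 2.87 and 4.84 CPM in skin (log2 fold change 0.29 ± 0.41, adjusted p = 0.566).

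Adipocyte genes varied widely within both groups. Of 14 tested genes 3 rose and 2 fell (median 0.52), 1 and 1 with the block, and 5 rose without the edge of 1326 K, whose summed level was the lowest with 311 CPM against up to 2967. ADIPOQ, adiponectin, measured 18.7, 619 and 988 CPM at the edge against 51.6, 273 and 882 CPM in skin (log2 fold change 0.65 ± 0.76, adjusted p = 0.485). PCK1 measured 3.51, 52.4 and 96.5 CPM at the edge against 0, 2.66 and 20.8 CPM in skin (log2 fold change 2.99 ± 0.89, adjusted p = 0.0116). DGAT2, which completes triglycerides and is also active in sebaceous cells, fell with 56.5, 169 and 303 CPM at the edge against 235, 544 and 574 CPM in skin (log2 fold change -1.45 ± 0.35, adjusted p = 0.00328). The call of CD36 (log2 fold change 1.67 ± 0.59, adjusted p = 0.028, 0.165 with the animal as a block) was lost without any 1 of the edge of 1328 B, 1327 K or the skin of 1327, 1325, 1328 (0.0502 to 0.0687). LPL, lipoprotein lipase (log2 fold change 1.10 ± 0.44, adjusted p = 0.047, 0.179 with the animal as a block, 0.0536 with the wounds of an animal summed), lost its call without any 1 of the edge of 1328 K, 1328 B, 1327 K, 1326 B or the skin of 1327, 1324, 1325, 1328 (0.0621 to 0.112).

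Skeletal muscle genes had 2 of 12 tested higher and 1 lower (median 1.07), and the higher calls rested on 1 library. Summed over the list, the edge of 1328 K held 414 CPM and the other 5 edge samples 26.6 to 45.6, against 54.7 to 74.2 in skin. ACTA1, skeletal actin, measured 0, 0.245 and 105 CPM at the edge against 0, 0.574 and 0.719 CPM in skin (log2 fold change 5.20 ± 1.73, adjusted p = 0.0205, 0.29 with the animal as a block). Its adjusted p was 0.760 without that library. TTN, titin (log2 fold change 1.48 ± 0.54, adjusted p = 0.0312, 0.195 with the animal as a block), lost its call without any 1 of the edge of 1328 K or the skin of 1327, 1328, 1323 (0.0592 to 0.158). DMD, dystrophin, which smooth muscle and nerve also express, fell with 8.56, 13.5 and 22 CPM at the edge against 27.1, 31.8 and 46.4 CPM in skin (log2 fold change -1.37 ± 0.23, adjusted p = 2.00e-04).

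Of 14 tested Schwann cell and nerve genes 8 fell and 2 rose (median -1.22). EGR2, which drives myelination, measured 9.67, 13.7 and 20.6 CPM at the edge against 28.1, 40.6 and 60.3 CPM in skin (log2 fold change -1.62 ± 0.26, adjusted p = 1.54e-04). L1CAM, an adhesion molecule of axons, rose with 20.01, 28.3 and 47.2 CPM at the edge against 6.69, 9.07 and 15.7 CPM in skin (log2 fold change 1.66 ± 0.26, adjusted p = 1.18e-04). SOX10, a factor of Schwann cells and melanocytes, measured 0, 1.27 and 2.78 CPM at the edge against 4.89, 8.41 and 9.67 CPM in skin (log2 fold change -2.50 ± 0.55, adjusted p = 0.0017). Of 5 tested melanocyte genes 2 fell and 2 rose, the latter being KIT and SLC45A2 (log2 fold change 1.59 ± 0.54, adjusted p = 0.0234, 0.14 with the animal as a block, 0.0555 with the wounds of an animal summed), and neither rise was kept with the block. MITF measured 14.7, 22 and 37 CPM at the edge against 32.5, 51.4 and 58.4 CPM in skin (log2 fold change -1.10 ± 0.23, adjusted p = 0.00133). PMEL measured 0.0702, 0.373 and 1.51 CPM at the edge against 0.856, 1.3 and 1.53 CPM in skin (log2 fold change -1.26 ± 0.52, adjusted p = 0.0518). Its adjusted p was 0.00365 without the edge of 1326 B. Erythrocyte genes rose in 2 of 3 tested. HBB, beta globin, measured 8.94, 32.6 and 223 CPM at the edge against 0.40, 3.06 and 17.5 CPM in skin (log2 fold change 3.49 ± 0.90, adjusted p = 0.00496). ALAS2, which starts heme synthesis in red cells, measured 1.31, 2.65 and 31.2 CPM at the edge against 0.0571, 0.341 and 2.04 CPM in skin (log2 fold change 3.56 ± 0.96, adjusted p = 0.00636). The highest value of both was that of 1326 K.

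Of the 10 genes with the largest rise under the naming rule, 5 have not been described above. GPR84, a fatty acid receptor of activated myeloid cells, measured 7.55, 101 and 424 CPM at the edge against 0, 0.087 and 0.209 CPM in skin (log2 fold change 10.51 ± 1.25, adjusted p = 1.33e-05). CLEC4E, a lectin receptor of macrophages for mycobacterial and damaged-cell lipids, had 0 counts in all 6 skin libraries and 1081 over the edge libraries, at least 396-fold higher when the skin is set to 3 counts over the group. ARG1, arginase 1, measured 62.9, 291 and 757 CPM at the edge against 0, 0.923 and 1.78 CPM in skin (log2 fold change 8.45 ± 0.81, adjusted p = 2.43e-06). SAA2, an acute phase protein, measured 16.8, 79 and 218 CPM at the edge against 0.0522, 0.278 and 0.473 CPM in skin (log2 fold change 8.29 ± 0.73, adjusted p = 1.34e-06). ACOD1, which makes itaconate in macrophages, measured 1.07, 7.99 and 36.7 CPM at the edge against 0, 0 and 0.209 CPM in skin (log2 fold change 7.97 ± 1.18, adjusted p = 8.09e-05). All of these lay above skin in every edge sample, which the naming rule required, so this adds no separate support. The others of the 10 were CXCL8, MMP1, IL1B, MMP13 and S100A9. CXCL8 lies on contig LUXX01018793.1 from 3456350 to 3459574, in a genome build that the sources used here do not name.

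Against the center of the same wounds on the same day, the edge held far more epidermal RNA. Of 14199 genes tested 1467 were higher at the edge (10.3%) and 556 lower (3.92%), and 1467 and 640 with the wound as a block. The center of 1328 B held 87589.8 CPM of skeletal muscle genes, and without it the counts were 1653 and 691. The number lower at the edge was 922 by DESeq2, and 270 without the edge of 1327 B, 342 without the edge of 1326 K and 328 without the center of 1326 K. The median over all genes was -0.033. KRT5 measured 5065, 7303 and 9875 CPM at the edge and 10.6, 47 and 157 CPM in the center (log2 fold change 6.94 ± 0.63, adjusted p = 2.81e-06). Of basal genes 15 of 17 tested were higher at the edge (median 5.24), of suprabasal genes 24 of 26 (6.45), of barrier lipid genes 12 of 17 (4.54) and of activated keratinocyte genes 9 of 11 (3.04). Cholesterol synthesis genes were higher in 15 of 22 (0.86), although 6 had been higher and 4 lower against skin.

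Some matrix and vessel genes were higher in the center. The edge was lower in 6 of 29 matrix genes, 8 of 23 collagen processing genes (with 1 higher), 5 of 14 myofibroblast genes and 8 of 26 endothelial genes. PLOD2 had a log2 fold change -0.80 ± 0.23, adjusted p = 0.0358, PECAM1 a log2 fold change -0.60 ± 0.16, adjusted p = 0.0203 and WNT5A a log2 fold change -1.33 ± 0.35, adjusted p = 0.0198. No call was made by edgeR for the 39 cell cycle genes or the 22 T and NK genes, of which 1 and 2 had an unadjusted p below 0.05, and DESeq2 called 0 in each. IL24 was higher at the edge (log2 fold change 6.90 ± 0.88, adjusted p = 7.09e-05), as were LPO (log2 fold change 6.92 ± 0.81, adjusted p = 2.89e-05) and NRG1 (log2 fold change 1.75 ± 0.46, adjusted p = 0.0222). S100A9 was higher too (log2 fold change 3.04 ± 0.70, adjusted p = 0.00961).

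Against the day 2 edge of the same animals, the later edge held more matrix and vessel RNA and less RNA of the differentiated epidermis. Of 14504 genes tested 1316 were higher on day 6 (9.07%) and 1013 lower (6.98%), with a median of -0.0056. Matrix genes were higher in 18 of 29 (median 1.25), collagen processing genes in 19 of 23 (1.33), proteases in 13 of 26 and endothelial genes in 14 of 26. CTHRC1 had a log2 fold change 3.93 ± 0.37, adjusted p = 4.17e-05, WNT5A a log2 fold change 3.77 ± 0.36, adjusted p = 4.69e-05 and IL11 a log2 fold change 5.19 ± 1.06, adjusted p = 0.00479. INHBA rose from 2.67, 10.2 and 21.3 CPM on day 2 to 26.5, 91.1 and 151 CPM on day 6 (log2 fold change 3.12 ± 0.52, adjusted p = 0.00135). Suprabasal genes were lower in 15 of 26 and barrier lipid genes in 10 of 17. Hair follicle genes were lower in 8 of 12, with summed levels of 99.5, 449 and 4810.0 CPM on day 2. Cell cycle genes were higher in 11 of 39 and macrophage genes lower in 4 of 24, MARCO among them (log2 fold change -1.66 ± 0.52, adjusted p = 0.0464). No interferon-stimulated gene was called (0 of 25 by edgeR, 1 by DESeq2, 11 at an unadjusted p below 0.05), with a median of -0.97.

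Against the day 13 edge, the day 6 edge held more cell cycle and cytokine RNA. Of 14287 genes tested 924 were higher on day 6 (6.47%) and 943 lower (6.6%), with a median of 0.017, and 445 and 625 with the wounds of an animal summed. The number higher was 545 without the day 6 edge of 1327 B and 552 without the day 13 edge of 1326 J, and the number lower was 615 without the day 13 edge of 1326 C and 609 without that of 1326 J. Cell cycle genes were higher in 35 of 39 (median 1.15). CCNB1 measured 16.5, 25.7 and 31 CPM on day 13 against 66.5, 82 and 99.1 CPM on day 6 (log2 fold change 1.54 ± 0.16, adjusted p = 1.79e-04). Cytokine genes were higher in 8 of 26 and chemokine genes in 6 of 25, among them IL6 (log2 fold change 2.71 ± 0.73, adjusted p = 0.0265), CXCL8 (log2 fold change 4.12 ± 1.17, adjusted p = 0.034) and IL11 (log2 fold change 3.24 ± 0.80, adjusted p = 0.019). Lower on day 6 were 7 of 12 activated keratinocyte genes, 13 of 26 suprabasal and 10 of 17 barrier lipid genes, and 9 of 29 matrix genes. SERPINB3 had a log2 fold change -2.42 ± 0.50, adjusted p = 0.00779, S100A12 a log2 fold change -2.48 ± 0.55, adjusted p = 0.0117, KRT80 a log2 fold change -1.21 ± 0.24, adjusted p = 0.00582 and COL1A1 a log2 fold change -0.97 ± 0.29, adjusted p = 0.0412. The 4 comparisons share the day 6 edge samples, so they are set side by side and were not tested for overlap.

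**Figure D4:**
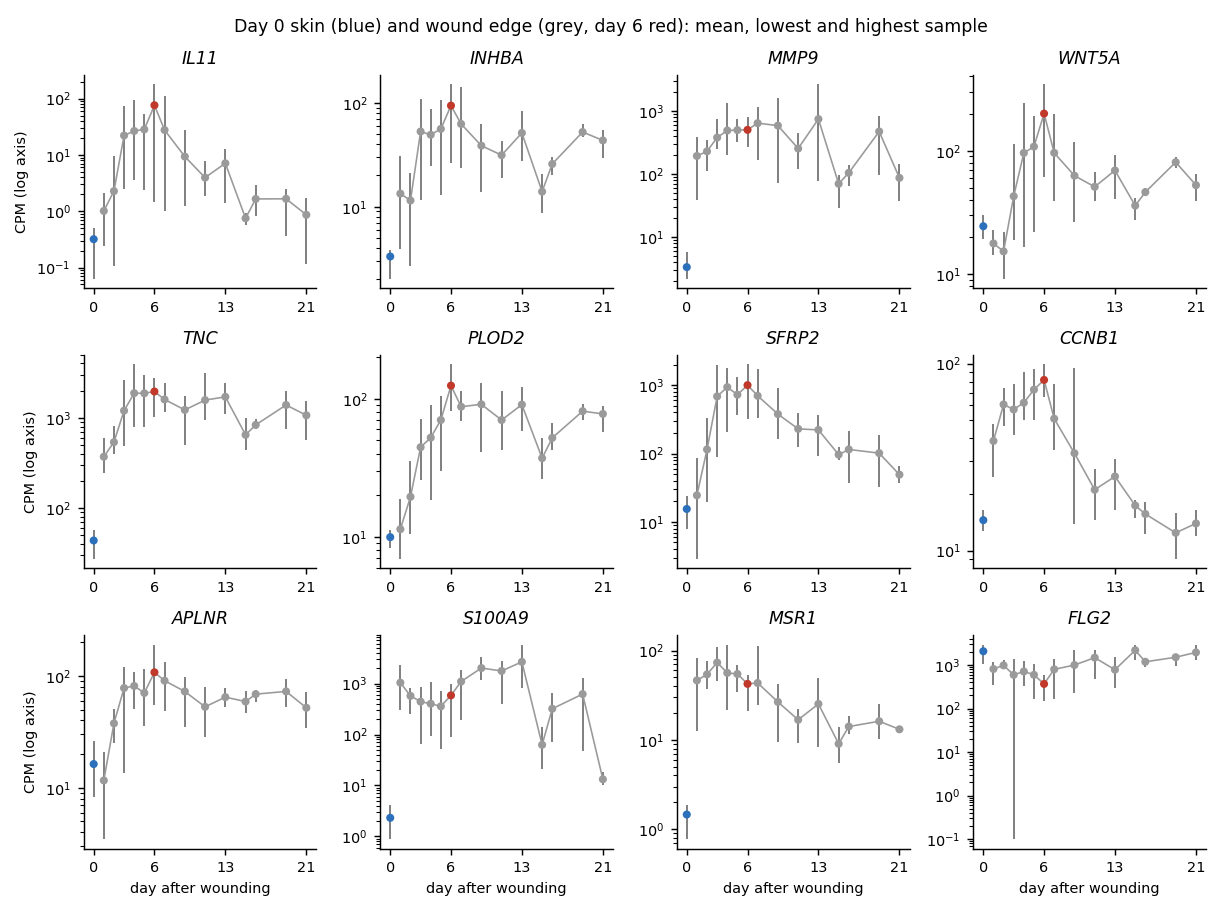
Mean CPM (log axis) of 12 genes in day 0 skin and at the wound edge on the 14 days after wounding. Bars run from the lowest to the highest sample. Animals 1323 to 1325 were sampled on days 1, 3, 5, 7, 11, 15 and 21 and animals 1326 to 1328 on the others. Each mean is of 6 samples, or of 3 on days 15, 16, 19 and 21. IL11, INHBA, WNT5A, TNC, PLOD2, SFRP2, CCNB1 and APLNR had their highest edge mean on day 6.

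Placed among the 14 days on which the edge was sampled, day 6 held the highest mean for 1460 of the 14675 genes tested (9.95%). It did so for 21 of the 39 tested cell cycle genes, 9 of 26 endothelial, 8 of 23 collagen processing and 7 of 21 growth factor genes. In 15 of the 39 lists no tested gene was highest on day 6, among them the neutrophil, macrophage, chemokine, interferon-stimulated and hair follicle lists. The means of IL11 (76.5 CPM), INHBA (93.9), WNT5A (199.8), TNC (1956), SFRP2 (1002) and NRG1 (25.9) were the highest of their courses. Other genes peaked on other days: MSR1 on day 3 with 73.5 CPM, CXCL8 on day 7 with 1033, S100A9 on day 13 with 2659 and KRT6C on day 16 with 18979.5. FLG2 had its lowest edge mean of all 14 days on day 6, 369 CPM. Days 15, 16, 19 and 21 had 3 edge samples each and the other days 6, so the means compared differ in their number of samples. The paper lists an edge sample of day 3 among those unlike their replicates. Most neighbouring days differ in their animals, so the order of days was not tested.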

How the data were processed

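The authors deposited raw counts of reads per gene for every sample, which their sequencing provider had made by removing adapter, poly-N and low-quality reads, aligning the rest and counting them. The aligner, counter and genome build are not given in the sources used here. The authors also deposited FPKM values, which were not used here. Gene symbols came from the name column of the table (12300 of 30461 genes) or from the protein match in its description (9387), and 746 of 816 list symbols were found.

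Samples were grouped by the day, location and animal in their labels. Genes were tested on the counts with edgeR 4.0.16 (quasi-likelihood, TMM, R 4.3.3) after filterByExpr (smallest count 10, smallest total 15) on the 12 samples of each comparison, and p-values were adjusted by Benjamini and Hochberg over all genes tested. Each sample counted as 1 unit, so p-values measure the spread between samples, of which 2 come from each day 6 animal. The animal numbers pair edge and skin of 3 animals, and the animal, or the wound for the center, was a block in an alternative. As a check, deviations from the group means were correlated. Edge with skin averaged -0.014 in the same animal and 0.0038 in different animals. Edge samples averaged -0.354 in 3 pairs of 1 animal and -0.149 in 12 pairs of 2 animals. Both samples of an edge pair enter the same group mean, which lowers these last values. Other alternatives were DESeq2 1.42.0, its size factors, the library size alone, no filter, summed wounds, day 0 samples of 3 animals, and leaving out each sample. The scripts were tested on simulated counts.

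The comparison, the 39 gene lists and the naming rule were chosen with earlier results of these data known. The rule named the 10 genes with the largest change in each direction that passed with and without block and with summed wounds, did not overlap and had a mean of at least 10 CPM in the higher group, the first tested and up to 4 most changed called genes of each list, list members that passed no test or went against their list, and the 5 genes with the largest share of counts. A few genes that the rule named are not reported here. HBEGF and GPX4 were named after their values were seen. Genes with near-identical copies, such as keratins, may share reads. Intervals and detection limits cover counting error only.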

Additional observations from a re-analysis of the deposited data

Results flagged for a closer look

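Dixon's ratio is the gap to the nearest other sample over the range of the group, read here at its 95% critical value. By it, 1 sample stood apart in 14 of 78 groups of 6 samples examined. Chance would give about 3.9 if the values were normally distributed. The 14 cannot be read as an excess over this number. Where only 1 sample of a group had counts, the ratio is 1.0 however few they were. Several of the 14 are also the same skin sample, that of animal 1324, so they are not independent. Levels here are log2(1 + CPM), averaged over the members for a list. What set these samples apart was not tested.

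Among the day 6 edge samples, animal 1326, wound B, had the highest hair follicle level (2.15 against 0.854 to 1.19 in the others, ratio 0.741). It also had the highest VSIG8 (3.10 against at most 0.825, ratio 0.734). It was the only edge sample with KRT74 counts (ratio 1.0), fewer than the 3 taken as detected. Animal 1327, wound K, was the only edge sample with KRT73 counts (ratio 1.0). Animal 1328, wound K, had the highest skeletal muscle level (3.42 against 0.714 to 1.15, ratio 0.838). Animal 1326, wound K, had the highest erythrocyte level (2.30 against 0.736 to 1.26, ratio 0.661).

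Among the skin samples, animal 1324 had the lowest KRT74 (0.753 against 8.08 to 10.06, ratio 0.788), TCHH (1.25 against 7.39 to 9.30, ratio 0.763), KRT71 (3.47 against 10.89 to 12.48, ratio 0.823) and KRT27 (2.92 against 11.06 to 12.63, ratio 0.838). Its mean r with the other skin samples was the lowest (0.944 against 0.965 to 0.973, ratio 0.731), and its mast cell level the highest (3.28 against 2.73 to 2.93, ratio 0.631). CXCL8 was highest in the skin of animal 1325 (0.654 against at most 0.228, ratio 0.651), and only the skin of animal 1323 had ACOD1 counts (ratio 1.0).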

How the results depend on the processing

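Against skin, the counts of 3985 higher and 3971 lower genes stayed within 1.5 times under DESeq2, its size factors, library size alone, no filter, summed wounds, the skin of the 3 day 6 animals and leaving out each sample, and no gene was called in the opposite direction under any of them. With the animal as a replicate block they were 2527 and 2507. Of 182 named genes, the block ended 25 calls. Against the center, the number lower was 922 by DESeq2 and 270 to 691 leaving out single samples, and with the wound as a block the counts stayed within 1.5 times. Against day 13, summed wounds gave 445 higher and 625 lower, and leaving out single samples 545 to 1282 and 609 to 1212. Against day 2, every alternative run stayed within 1.5 times of both counts. COL1A1 and PTGS1, neither of them called, changed sign when single samples were left out (log2 fold change -0.22 to 0.22 and -0.039 to 0.19). The causes were not tested. Depth limits genes near 0 in 1 group, whose fold changes rest on few counts.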
